A study of Homo sapiens with 17 samples.

Results

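The HOX cluster genes were taken as the RefSeq protein-coding genes whose symbols are HOXA, HOXB, HOXC or HOXD followed by a number. There were 39 of them among 20033 protein-coding genes on chromosomes with a RefSeq position (GRCh38.p14), 11 in HOXA, 10 in HOXB, 9 in HOXC and 9 in HOXD. The series holds 17 CUT&Tag libraries from H1, an established line of human pluripotent stem cells grown as a feeder-free culture. CUT&Tag directs a transposase to an antibody, and each deposited list gives the points of strongest signal, called summits, with a score. Lentiviral short hairpin RNAs against HNRNPU (shHNRNPU#1 and shHNRNPU#2) were compared with shLUC, the control hairpin, after puromycin selection of the transduced cells. H3K4me1 and H3K27ac were each profiled in 2 libraries of shHNRNPU#1, 2 of shHNRNPU#2 and 2 of shLUC. POLIIS2P, a target the labels do not spell out further, was profiled in 1 library of shHNRNPU#1 and 2 of shLUC, and HNRNPU itself in 2 libraries for which the label names no hairpin. HNRNPU is an abundant nuclear protein that binds RNA and chromatin. How far the hairpins lowered it was not measured here, and nothing in the labels says whether repeats were separate cultures, so p-values measure the spread between these libraries only.

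HOX genes encode homeodomain transcription factors that give cells their position along the head-to-tail axis. The 4 clusters arose by duplication, and genes of the same number in different clusters, paralogues, resemble each other most. In pluripotent cells the clusters are a textbook case of Polycomb repression, and H3K4me1 is a mark of enhancers and of regions flanking promoters, whereas H3K27ac marks those in use. A list of summits does not show whether a mark lay in many cells or strongly in few.

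In the 4 shLUC histone libraries the antibody in the title and the antibody in the peak names inside the file were opposite. Libraries are therefore called by their titles ("titled H3K27ac shLUC"), and each comparison that uses them is given with the titles and with the antibody names exchanged. The 2 libraries titled H3K27ac shLUC held 179137 and 181357 summits, within the 147145 to 214333 of the H3K4me1 shHNRNPU lists. The 2 titled H3K4me1 shLUC held 62449 and 90914, beside 40487 to 85142 in the H3K27ac shHNRNPU lists. POLIIS2P lists held 79949 to 87456 summits and HNRNPU lists 34649 and 35526. The read depth behind these lists is unknown. Of 11 pluripotent marker genes in the annotation, 8 had H3K27ac in all 4 shHNRNPU libraries, including SOX2, NANOG, LIN28B and DNMT3B, beside 52% of all protein-coding genes. POU5F1, LIN28A and DPPA4 lacked it in at least 1. Of 10 markers of other cell types, PDGFRB alone had it in all 4.

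Some sequences show what the summits lay on. The promoters below run from 250 bp before to 50 bp after the RefSeq start on the gene's strand, with CG dinucleotides in capitals. HOXD8 is shown because H3K4me1 summits lay in it in all 4 shHNRNPU libraries and in neither titled H3K27ac shLUC library, HOXD1 because they lay in it in all of these 6, HOXD13 because all 3 POLIIS2P libraries had a summit there, and HOXD4 as the promoter with the fewest CG.
HOXD8 promoter, chr2:176129455-176129754, plus strand: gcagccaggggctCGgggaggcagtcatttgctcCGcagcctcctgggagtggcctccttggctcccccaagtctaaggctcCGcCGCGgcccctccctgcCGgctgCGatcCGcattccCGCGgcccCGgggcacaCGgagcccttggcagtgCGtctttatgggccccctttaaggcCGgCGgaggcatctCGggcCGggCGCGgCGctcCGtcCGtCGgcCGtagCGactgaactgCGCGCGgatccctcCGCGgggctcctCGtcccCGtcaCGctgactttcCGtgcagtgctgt
HOXD1 promoter, chr2:176188418-176188717, plus strand: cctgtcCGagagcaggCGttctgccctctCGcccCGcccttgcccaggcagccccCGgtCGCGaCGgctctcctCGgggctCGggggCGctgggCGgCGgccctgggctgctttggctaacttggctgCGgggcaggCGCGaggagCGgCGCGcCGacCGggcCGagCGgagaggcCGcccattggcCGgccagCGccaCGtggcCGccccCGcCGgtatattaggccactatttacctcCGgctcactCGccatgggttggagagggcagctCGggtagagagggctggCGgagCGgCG
HOXD13 promoter, chr2:176092471-176092770, plus strand: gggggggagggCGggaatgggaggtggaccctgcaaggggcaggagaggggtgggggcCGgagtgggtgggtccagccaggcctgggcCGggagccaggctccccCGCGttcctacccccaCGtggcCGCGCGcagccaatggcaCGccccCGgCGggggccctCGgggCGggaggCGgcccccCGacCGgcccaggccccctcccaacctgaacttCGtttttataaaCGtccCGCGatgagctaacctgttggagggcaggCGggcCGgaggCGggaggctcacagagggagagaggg
HOXD4 promoter, chr2:176151300-176151599, plus strand: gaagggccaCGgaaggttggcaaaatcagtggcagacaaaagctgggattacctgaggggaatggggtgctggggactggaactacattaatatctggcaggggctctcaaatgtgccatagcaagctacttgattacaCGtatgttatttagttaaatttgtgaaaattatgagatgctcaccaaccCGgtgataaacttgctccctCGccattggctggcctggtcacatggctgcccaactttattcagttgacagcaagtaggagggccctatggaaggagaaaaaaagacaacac
These 4 hold 34, 36, 24 and 4 CG. Promoter sequence was at hand for 20 of the 39 genes, with a median of 22.5 CG beside 22 over 15842 promoters. TATAAA, the letters of a TATA box, was found on either strand in 4 of the 20 (HOXA3, HOXA9, HOXA10 and HOXD13), beside 9.63% of all promoters. CCGCCC was found in 10 of the 20, beside 58.5% of all, and TGATTNAT in HOXA2 and HOXD11, beside 2.07%. The motifs were searched separately and a match is only a description of the letters.

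The clusters also carry microRNAs, of which the miR-196 genes share a seed (bases 2 to 8, in capitals) and target HOX transcripts.
hsa-miR-196a-5p: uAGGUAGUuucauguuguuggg
hsa-miR-196b-5p: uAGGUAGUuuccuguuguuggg
hsa-miR-10a-5p: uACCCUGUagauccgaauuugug
MIR196B, at chr7:27169528-27169549 on the minus strand between HOXA9 and HOXA10, had a summit within 1000 bp in all 4 H3K4me1 shHNRNPU libraries and all 3 POLIIS2P libraries. MIR196A2, at chr12:53991762-53991783 on the plus strand in HOXC, had H3K4me1 in all 4 and POLIIS2P in 1. MIR196A1, at chr17:48632532-48632553 on the minus strand in HOXB, had H3K4me1 in 2 and POLIIS2P in none, and MIR10A, at chr17:48579904-48579926 on the minus strand in HOXB, had each in 1. H3K27ac shHNRNPU libraries had none at any of these 4. The 3 loci with the miR-196 seed thus differed in the number of libraries with a summit.

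The HOX genes carried H3K4me1 and not H3K27ac. In the 4 H3K4me1 shHNRNPU libraries 34, 34, 34 and 38 of the 39 genes had a summit within the gene plus 1000 bp each side, and in the 4 H3K27ac shHNRNPU libraries none of the 39 had one. Over all protein-coding genes the shares were 78.3% to 85.2% for H3K4me1 and 59% to 73.9% for H3K27ac. In the lists at full length the HOX share fell below that of all genes for H3K27ac and not for H3K4me1. The H3K4me1 lists were longer, and counts from shortened lists are given below. H3K4me1 in all 4 libraries was found at 29 of the 39 genes (74.4%) beside a background of 74.2%, in at least 3 of 4 at 34 beside 80.5%, and H3K27ac in none of 4 at all 39 beside 19.2%. H3K27ac in all 4 was found at 0 HOX genes beside 52% of all genes. Both together held for 29 HOX genes, beside 5.83% of protein-coding genes (1168 genes). The shLUC libraries gave the same contrast with the names turned: 33 of 39 genes had a summit in each library titled H3K27ac and 0 in each titled H3K4me1, and 29 genes had the first in both and the second in neither (8.43% of all genes). With names exchanged 26 genes had H3K4me1 in all 6 and H3K27ac in none of 6 libraries, beside 3.93% of all genes.

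**Figure D1:**
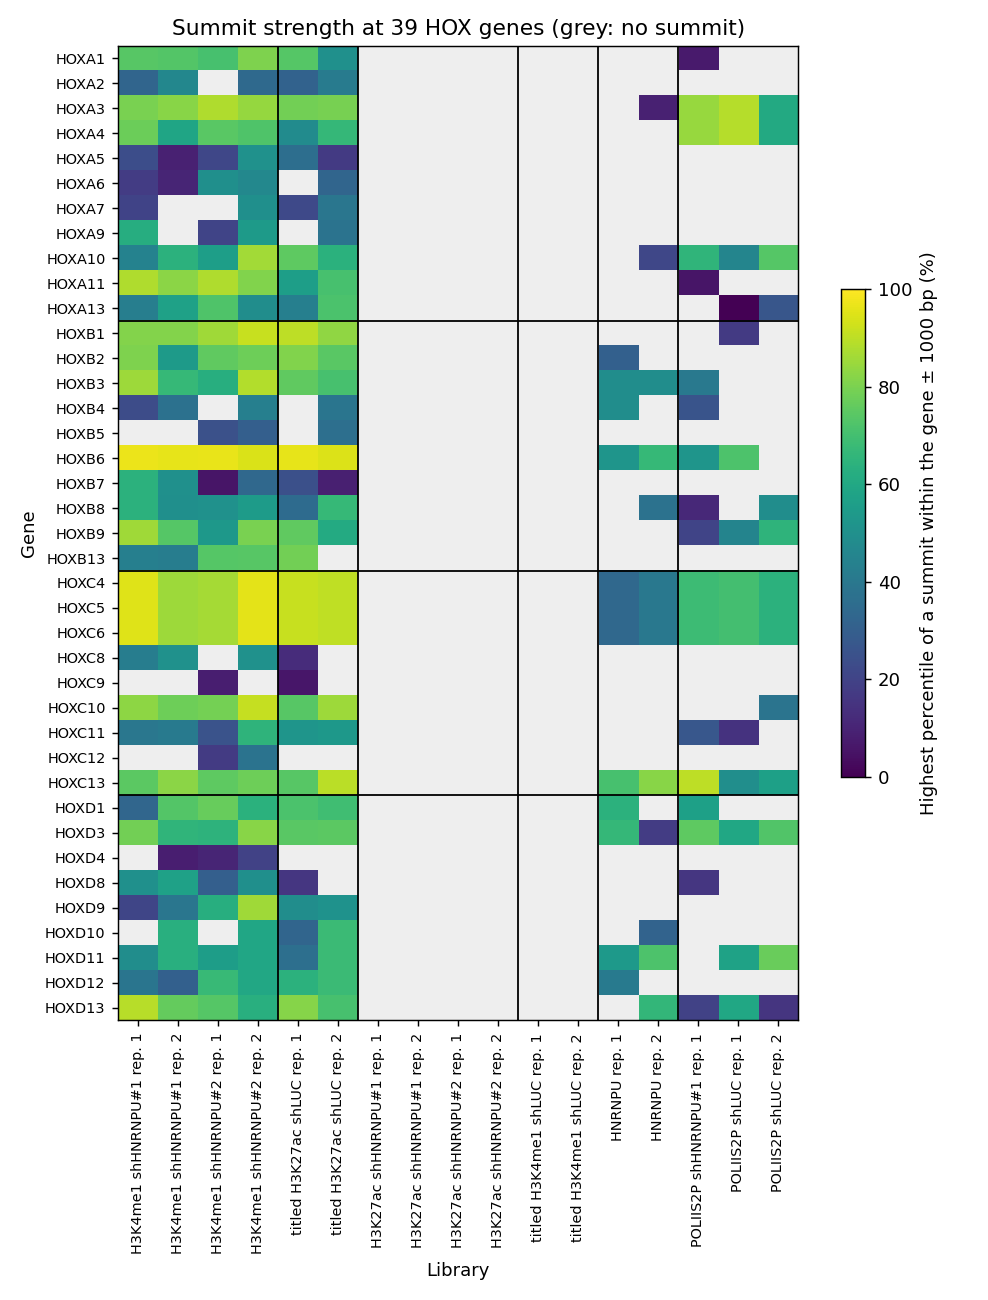
Highest within-list percentile of a summit in each of the 39 HOX genes plus 1000 bp (rows, by cluster and number) in each of the 17 libraries (columns). Colour runs from 0 to 100%, and grey marks a gene without a summit. The 4 H3K27ac shHNRNPU columns and the 2 titled H3K4me1 shLUC columns are grey at all 39 genes.

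The cluster regions held more H3K4me1 summits per length than the genome, spread unevenly. Across the 4 clusters with 50 kb each side, 161, 168, 175 and 199 H3K4me1 summits lay in the shHNRNPU libraries, or 17.4 to 21.4 per 100 kb, and 3.09 to 3.67 times the density of the same list over the genome. Most lay within the clusters. The 100 kb of flanks held 7 to 8 summits at HOXD and 8 to 9 at HOXC, but 16 to 20 at HOXA and 15 to 17 at HOXB. Counting the libraries titled H3K27ac shLUC too, the longest stretches without an H3K4me1 site were 48.2 kb at HOXD (chr2:176192714-176240907), 38.8 kb at HOXC (chr12:53888831-53927661), 31.3 kb at HOXB (chr17:48678695-48710009) and 27.6 kb at HOXA (chr7:27053387-27080987). The libraries titled H3K27ac shLUC had 180 and 189 summits in the 4 regions, 3.34 and 3.46 times their genome density. In contrast, the H3K27ac shHNRNPU lists had 1, 0, 1 and 2 summits and those titled H3K4me1 shLUC 1 and 3, all below their genome densities. HNRNPU had 22 and 24 (2.06 and 2.3 times) and POLIIS2P 47 in shHNRNPU#1 and 34 and 30 in shLUC (1.95, 1.29 and 1.17 times). Of the 20000 strongest H3K4me1 summits of each shHNRNPU list, 7, 5, 2 and 7 lay in the cluster regions. At that cut 6, 1, 1 and 6 of the 39 HOX genes had a summit, beside 30.5% to 31.4% of all genes. The genome density was not computed at that cut, so the higher density of the clusters is given for full lists only.

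**Figure D2:**
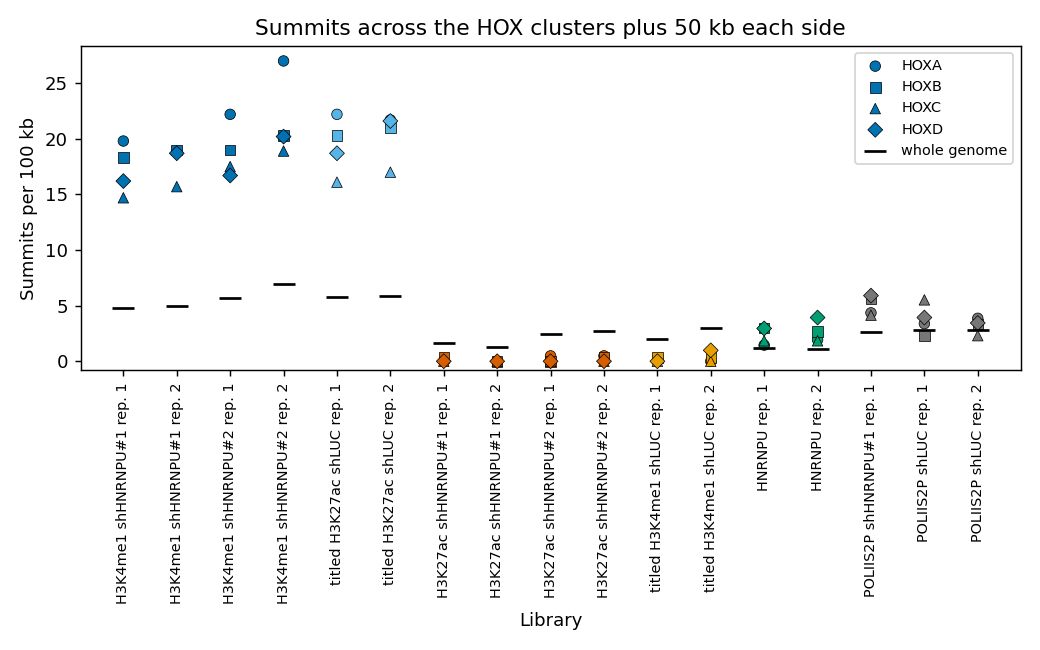
Summits per 100 kb (y axis) across HOXA, HOXB, HOXC and HOXD plus 50 kb each side in each library (x axis), with the density of that list over the whole genome as a black bar. H3K4me1 shHNRNPU libraries lie at 14.7 to 27 in every cluster, and H3K27ac shHNRNPU libraries near 0.

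The longer H3K4me1 lists were therefore shortened to their strongest summits, a step chosen after the counts were seen. At 85142 summits, the length of the longest H3K27ac shHNRNPU list, 25, 26, 23 and 21 of the 39 HOX genes had H3K4me1, beside 65% to 66.7% of all genes. The HOX share was then close to or below that of all genes. At 40487, the length of the shortest, 16, 11, 8 and 12 did, beside 45.3% to 46.9%, a lower share than that of all genes in each list. No H3K27ac shHNRNPU list at its full length reached a HOX gene.

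**Figure D3:**
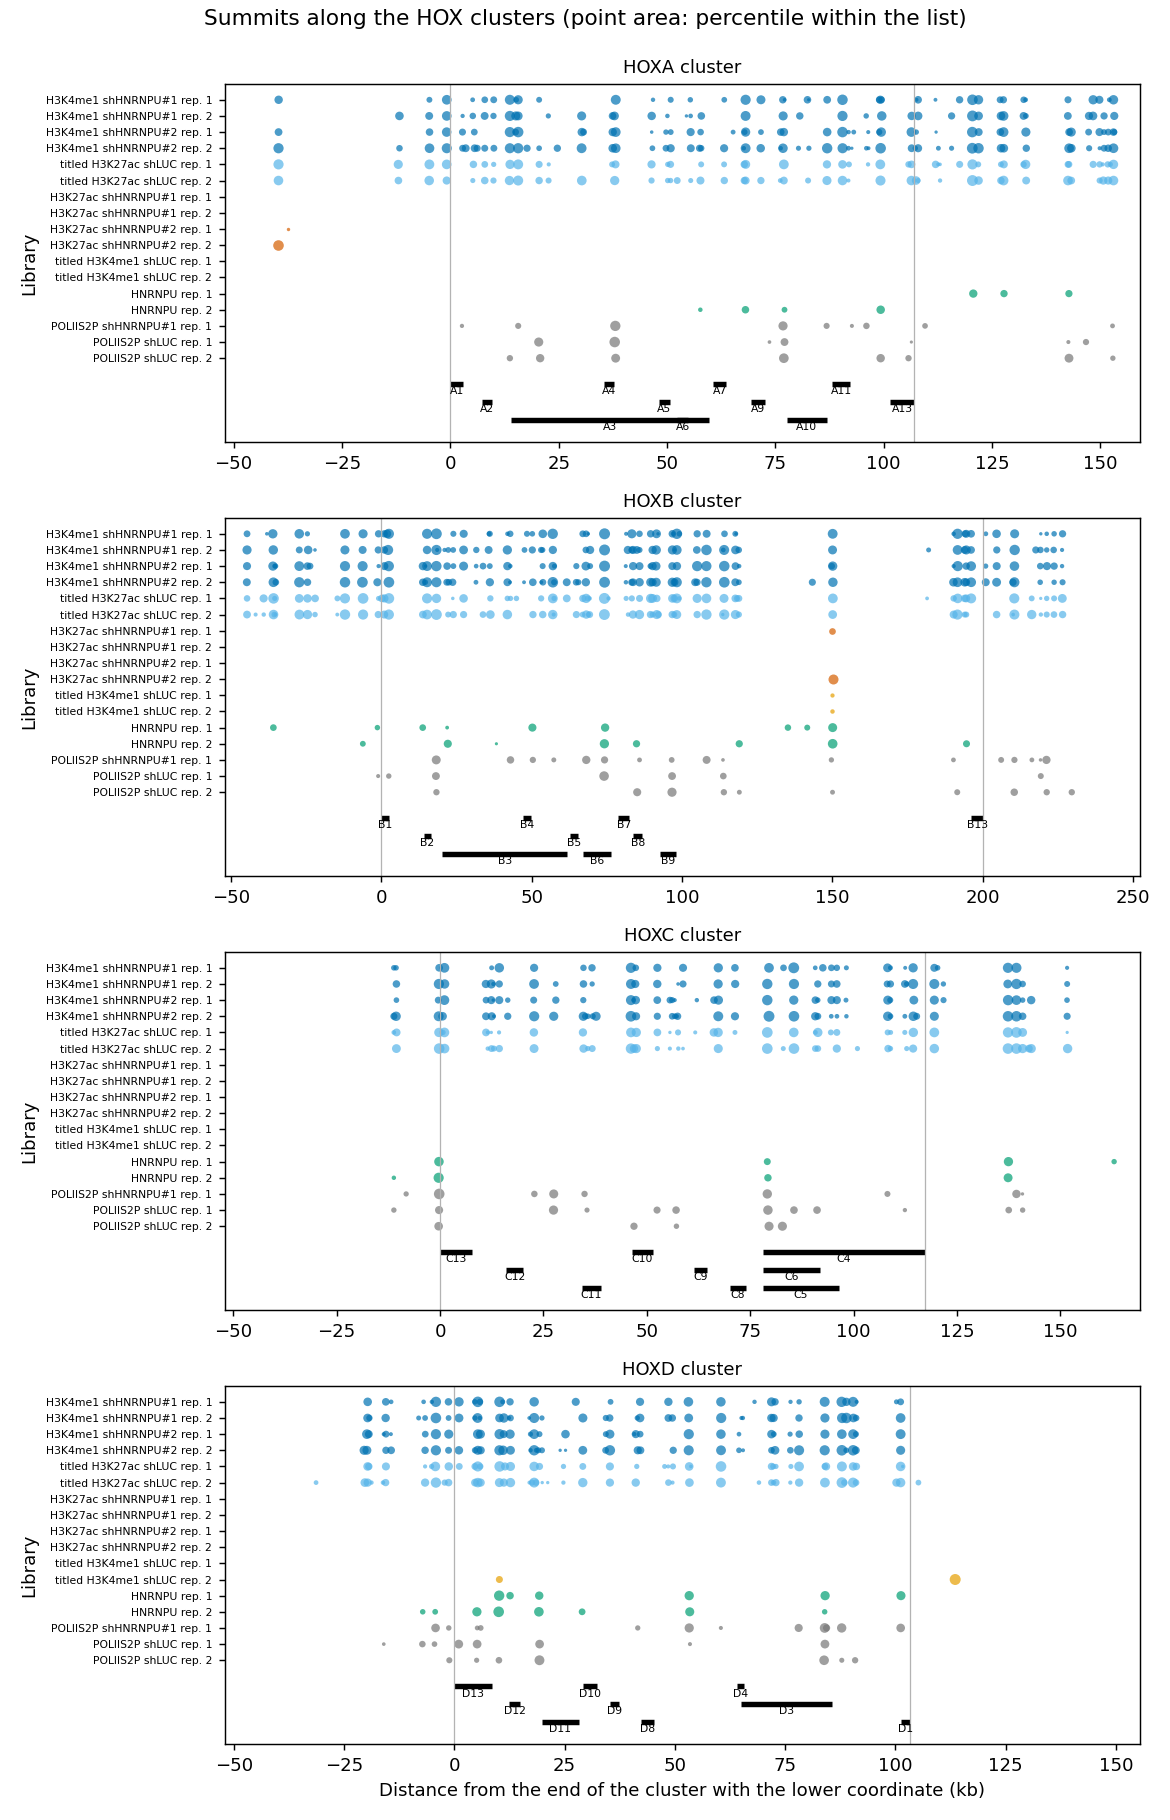
Summits along each cluster and 50 kb each side by distance in kb from the end with the lower coordinate (x axis), 1 row per library (y axis), with point area rising with the percentile and gene intervals as black bars. H3K4me1 shHNRNPU and titled H3K27ac shLUC rows are filled in all 4 clusters, whereas the H3K27ac shHNRNPU and titled H3K4me1 shLUC rows hold 0 to 3 summits each over all 4.

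H3K27ac in the cluster regions amounted to 5 places in the 6 libraries with names exchanged, none of them within a HOX gene or 1000 bp of one. The place shared by most libraries was in the long noncoding RNA gene LINC02086 between HOXB9 and HOXB13, at chr17:48678371-48678694, with percentiles of 30.7, 0, 0 and 79.3 in the shHNRNPU libraries and 7.3 and 8.96 in those titled H3K4me1 shLUC. HNRNPU also had a site there, with percentiles of 62.4 and 72.9.

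Among the HOX genes the strength of H3K4me1 varied widely. Strength is given as the percentile, within its own list, of the highest summit in the gene plus 1000 bp, with 0 for no summit. The mean over the 4 shHNRNPU libraries ran from 2.1 at HOXC9 to 96 at HOXB6, with a median of 56.7 over the 39 genes beside 70.6 over all protein-coding genes. HOXB6, a trunk patterning gene, had percentiles of 97.1 and 96.2 in shHNRNPU#1 and 96.5 and 94.2 in shHNRNPU#2 (96 ± 1.27, SD, n = 4). HOXB6 thus had the highest mean of the 39. Its summits lay at chr17:48602706-48602759, in sequence that HOXB6 shares with HOXB-AS3, and the 2 libraries titled H3K27ac shLUC had theirs there too.

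HOXC4, HOXC5 and HOXC6 are annotated from a common start and shared the same highest summits, so they count as a single observation, with 95.1, 85.3, 86.6 and 95.8 (90.7 ± 5.52). HOXB1, which acts in the hindbrain, followed with 81.3, 81.5, 85.9 and 91.7 (85.1 ± 4.88). HOXA11, a gene of limb and uterus development, had 88, 82.6, 88.2 and 81.2 (85 ± 3.64). The HOXB6 values overlapped with those of HOXC4, HOXC5 and HOXC6, and these with HOXB1 and HOXA11, so that the spread between libraries did not resolve the order of neighbours.

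HOXA3, needed for thymus and parathyroid, had 79.8, 82.1, 88.1 and 84 (83.5 ± 3.53), and HOXC10, expressed in the lumbar region, had 82.9, 78.1, 79.1 and 91.4 (82.9 ± 6.02). HOXC13, a gene of hair and nail, had 74.7, 82.7, 75 and 78.1 (77.6 ± 3.71), and HOXB3 had 85.2, 66.9, 62.5 and 88.6 (75.8 ± 13). The HOXB3 interval holds that of HOXB4, and the HOXA3 interval spans HOXA4, HOXA5 and HOXA6, so neighbours share summits.

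At the low end HOXC9, a thoracic patterning gene, had a summit in 1 library (8.38). HOXD4 had 0, 8.26, 10.5 and 19.8, HOXB5 and HOXC12 each had 0 in both shHNRNPU#1 libraries with 24.7 and 30.3, and 17.4 and 37.9, in shHNRNPU#2, and HOXA7 had 20.2, 0, 0 and 49.8. For these 5 genes at least 1 library had no summit. None of the 39 lacked a summit in all 17 libraries. Paralogue groups 1 to 4, the genes of the hindbrain and neck, had a median of 72.5 (n = 12 genes), groups 5 to 8 of 38.3 (n = 11) and groups 9 to 13 of 56 (n = 16). Their ranges overlapped widely, at 9.63 to 90.7, 13.7 to 96 and 2.1 to 85. HOXC4 in the first and HOXC5 and HOXC6 in the second share summits, so these genes are not independent. No difference between the groups was tested. The percentile ran with gene length (Spearman's rho = 0.58 over 39 genes, which share libraries and, in part, sequence), as it did for POLIIS2P (0.62). HOX genes had a median length of 3785 bp beside 24130 bp for all.

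As H3K27ac was at 0 in all 4 shHNRNPU libraries at all 39 HOX genes, the difference between the antibodies at each gene was its mean H3K4me1 percentile, and its test adds nothing to those levels. By limma across all genes (4 libraries of each antibody), 31 of the 39 were higher for H3K4me1 and none for H3K27ac, beside 33.4% of the 17528 genes tested called higher and 14.3% lower. The 38 HOX genes tested passed the filter of a summit in at least 2 libraries through H3K4me1 alone and could differ in 1 direction only, so the count is no support for a difference. Without the filter it was again 31 of 39, with 25.1% of all genes called higher. HOXA7, HOXA9, HOXB4, HOXB5, HOXC12, HOXD4 and HOXD10 were not called, and HOXC9 was not tested. The exact permutation test of 4 against 4 libraries cannot go below 0.0286 and called no HOX gene after adjustment over all genes, with 29 at an unadjusted p under 0.05. When summits were ranked from the top of each list in place of percentiles, 8 HOX genes were called higher for H3K4me1 (15.4% of all genes) and 8 lower (45.3%), because in that scale absence from a short list outranks a weak summit in a long one.

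Whether the HNRNPU hairpins changed H3K4me1 or H3K27ac at the HOX genes depended entirely on the names of the shLUC libraries. With the titles, 25 HOX genes were higher for H3K4me1 in shHNRNPU than in shLUC (30.5% of the 17450 genes tested) and 29 were lower for H3K27ac (18.3% of 17286), by limma at an adjusted p under 0.05. For H3K4me1 the 4 shHNRNPU libraries all lay above both shLUC libraries at 29 genes (33.4% of all genes), and for H3K27ac all lay below at 29 (36.9%). No HOX gene was called in the other direction, beside 14.7% of genes lower for H3K4me1 and 12.1% higher for H3K27ac, and none lay apart in it, beside 21.6% and 14.6%. The HOX genes tested had passed the filter through the group where they were high, with 0 in every library of the other, so the direction of these calls was fixed and the counts are no support for a difference. Without the filter on low values 25 of all 39 were higher for H3K4me1 (22.3% of all genes) and 29 lower for H3K27ac (13.9%). The condition difference was higher for H3K4me1 than for H3K27ac at 33 HOX genes by the interaction term (37% of 17817 genes) and lower at none (19.1%). All 39 genes were at 0 in both libraries titled H3K4me1 shLUC and in all 4 H3K27ac shHNRNPU libraries. The interaction term could therefore not fall below 0 at a HOX gene, and its 33 calls are no support for a difference either. Leaving out either library titled H3K27ac shLUC left no HOX gene past the filter for H3K27ac.

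With the names exchanged, no HOX gene was called for H3K4me1 by limma (0% of the 17159 genes tested in either direction), 2 had an unadjusted p under 0.05, and the exact permutation test called none. For H3K27ac all 39 were at 0 in all 6 libraries and none could be tested. The conditions could therefore not lie apart at a HOX gene, as they did upwards at 1.72% and downwards at 9.39% of all genes. Averaging both antibodies within each library pair does not depend on the names. By limma it called no HOX gene (0% of 17808 genes), with 1 at an unadjusted p under 0.05. Opposite differences of the 2 antibodies, as the titles give at HOX genes, cancel in this average, so it cannot show whether they occurred. The exact permutation test again called none, and the smallest p that 4 against 2 libraries allow in it is 0.0667.

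HOXD8, a trunk gene, had the largest difference with names exchanged. H3K4me1 percentiles were 50.2, 57.1, 30.4 and 49.9 in shHNRNPU and 15.7 and 0 in the libraries titled H3K27ac shLUC, a difference of 39.1 points (SE 11.8) with an adjusted p = 0.849 by limma. HOXC8 had 42.3, 50.7, 0 and 50.4 beside 12.7 and 0 (29.5 points, SE 16.2, adjusted p = 0.905 by limma), and HOXA11 had 55.9 and 70.8 in shLUC (21.6 points, SE 7.29, adjusted p = 0.857 by limma). The libraries of the 2 conditions did not overlap at HOXD8, HOXA3 and HOXA11 (5.65% of all genes were above without overlap) and at no HOX gene in the other direction (6.56%). In the average of both antibodies HOXD8 led again, by 19.5 points (adjusted p = 0.976 by limma), followed by HOXC8 (14.7) and HOXA11 (10.8).

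**Figure D4:**
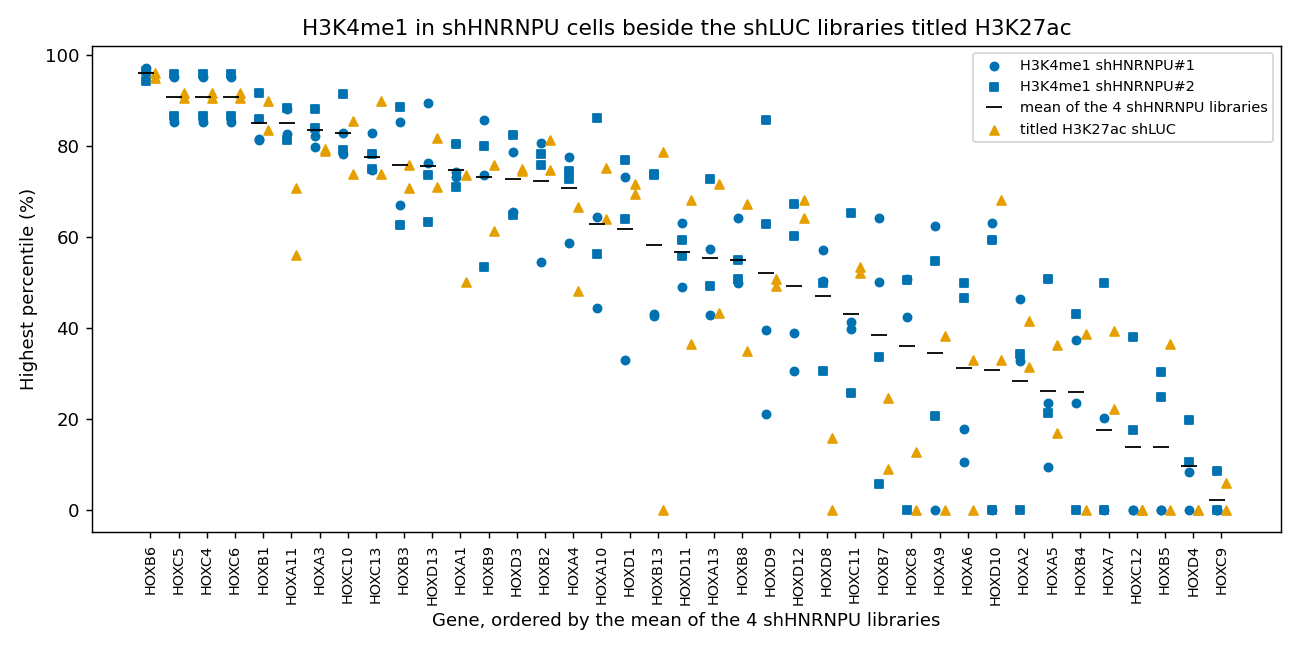
Highest H3K4me1 percentile (y axis, %) at each of the 39 HOX genes (x axis, ordered by the mean, black bar) in the 4 shHNRNPU libraries (blue) and in the 2 shLUC libraries titled H3K27ac (orange triangles). The orange points fall within or near the blue ones at most genes, and at HOXD8 they lie at 15.7 and 0 beneath 30.4 to 57.1.

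With names exchanged, few single H3K4me1 sites were found in 1 condition only, and more of these in shLUC than in shHNRNPU. The genes without overlap had all been higher in shHNRNPU. Neither count was tested. Summits of the 6 libraries with names exchanged were chained into sites where they lay within 250 bp of each other. Of 289 sites across the cluster regions, 85 (29.4%) had a summit in all 6 libraries, beside 25.4% over the genome. Those present in all 4 shHNRNPU libraries and neither shLUC library numbered 1 (0.346%), beside 0.577% of all sites, and those in both shLUC libraries and no shHNRNPU library numbered 6 (2.08%), beside 1.28%. The 1 was the HOXD8 promoter printed above, where summits at chr2:176129598-176129688, centred 62 bp before the first annotated base of the gene, had percentiles of 50.2, 57.1, 30.4 and 44.9. A neighbouring site at chr2:176128620-176129077 had 0, 16, 49.3 and 49.9 in shHNRNPU and 15.7 and 53 in shLUC. Part of that site lies outside the 1000 bp window, and with a window of 5000 bp the difference at HOXD8 was 13.9 points. The strongest sites were that of HOXB6 above, with a mean percentile of 95.8 over 6 libraries, chr7:27213429-27213479, 13363 bp outside HOXA13 (90.5), and chr17:48530785-48531050 at HOXB1 (85.6).

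HNRNPU sites lay at a smaller share of HOX genes than of all genes. Summits were not sparser per length over whole gene windows, but they were sparser close to the start. A site was counted where the 2 HNRNPU libraries had summits within 250 bp, which gave 17226 sites over the genome. HOXB3, HOXB6, HOXC13, HOXC4, HOXC5, HOXC6, HOXD11 and HOXD3, 8 of the 39 genes (20.5%), had a site within 1000 bp, beside 53.8% of protein-coding genes, and none of the 11 HOXA genes did. HOXC4, HOXC5 and HOXC6 shared a single site. The same 8 genes were those with a summit in both libraries (63.7% of all genes), and 22 had a summit in neither (23.4%). Per length, HOX genes plus 1000 bp held 3.04 and 3.65 HNRNPU summits per 100 kb in the 2 libraries, beside 1.84 and 1.8 over all protein-coding genes. Gene length differed, with medians of 3785 and 24130 bp. Within 250 bp of the start, 20 HOX genes had 0.0998 summits per kb, beside 0.774 over 15842 starts. From 2000 to 5000 bp the order was reversed, with 0.0375 beside 0.0149. Only HOXC13 among the 8 had percentiles over 70 in both libraries (70.8 and 82.3), at chr12:53938577, 254 bp outside the gene and within HOXC13-AS.

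In the cluster regions 10 HNRNPU sites were found, with a median of the mean percentile of 63.6 beside 69 over all sites. The strongest lay between HOXD13 and HOXD12 at chr2:176097658, 1714 bp from HOXD13, with percentiles of 85.4 and 90.5. H3K4me1 had a summit within 500 bp in all 4 shHNRNPU libraries at 8 of the 10, beside 69% of all HNRNPU sites. H3K27ac had none in any of the 4 at 9 of the 10, beside 20.7%. POLIIS2P had a summit in all 3 libraries at 3 of the 10, beside 64.2%. These were at HOXC13, inside the intervals of HOXC4, HOXC5 and HOXC6 (chr12:54017961), and at HOXD3. At a score of at least 5, 1 HOX gene kept a site, and in the series-wide HNRNPU interval list 16 had an interval.

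POLIIS2P was likewise found at a smaller share of HOX genes than of all genes. Per length, the HOX genes plus 1000 bp held 7.29 summits per 100 kb in shHNRNPU#1 and 5.17 and 4.25 in shLUC, beside 5.1, 5.54 and 5.47 over all genes. Within 250 bp of the start, 20 HOX genes had 0.233 summits per kb over the 3 libraries, beside 0.859 for 15842 starts. From 2000 to 5000 bp the values were 0.0361 and 0.0417. Of the 39 genes 19 had a summit in shHNRNPU#1 and 15 and 14 in the shLUC libraries, beside 72.9% to 75% of all genes. All 3 libraries had a summit at 10 genes, HOXA3, HOXA4, HOXA10, HOXB9, HOXC13, HOXC4, HOXC5, HOXC6, HOXD3 and HOXD13 (25.6%, beside 68.3%), and none had at 16 (beside 21.1%). All 10 had H3K4me1 in all 4 and H3K27ac in none of 4 shHNRNPU libraries, and H3K27ac was absent at all 39 HOX genes. POLIIS2P in all 3 together with that combination was found at 25.6% of HOX genes and 2.61% of all genes. Without regard to POLIIS2P the combination held for 74.4% and 5.83%. HOXC4, HOXC5 and HOXC6 shared their highest summits here too. The strongest place was shared by HOXA3 and HOXA4, at chr7:27130926-27131146, with 84.5 in shHNRNPU#1 and 89 and 60.6 in shLUC. HOXD3 had 75.2, 59.4 and 72.9 in the same order.

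With 1 shHNRNPU#1 library there is no test of POLIIS2P, and genes are given where it lay at least 10 percentile points from both shLUC libraries. Higher were HOXC13, HOXC11, HOXB3, HOXB4, HOXD8 and HOXD1 (6 genes, 15.4%, beside 5.91% of all genes), and lower were HOXB9 and HOXD11 (2 genes, 5.13%, beside 8.38%). HOXC13 had 90 beside 49.5 and 56.7, and HOXD1 had 57 beside 0 and 0. HOXD11 had 0 beside 57.8 and 77.1. HOXB3, HOXB4, HOXD8 and HOXD1 were at 0 in both shLUC libraries, and HOXB3 and HOXB4 overlap. The shLUC libraries also differed from each other at HOX genes, for instance by 72 against 0 at HOXB6. Against either shLUC library alone, 14 HOX genes were past 10 points, 9 higher (23.1%, beside 10.3% and 12.3% of all genes for the 2 libraries) and 5 lower (12.8%, beside 14.8% and 13.2%).

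**Figure D5:**
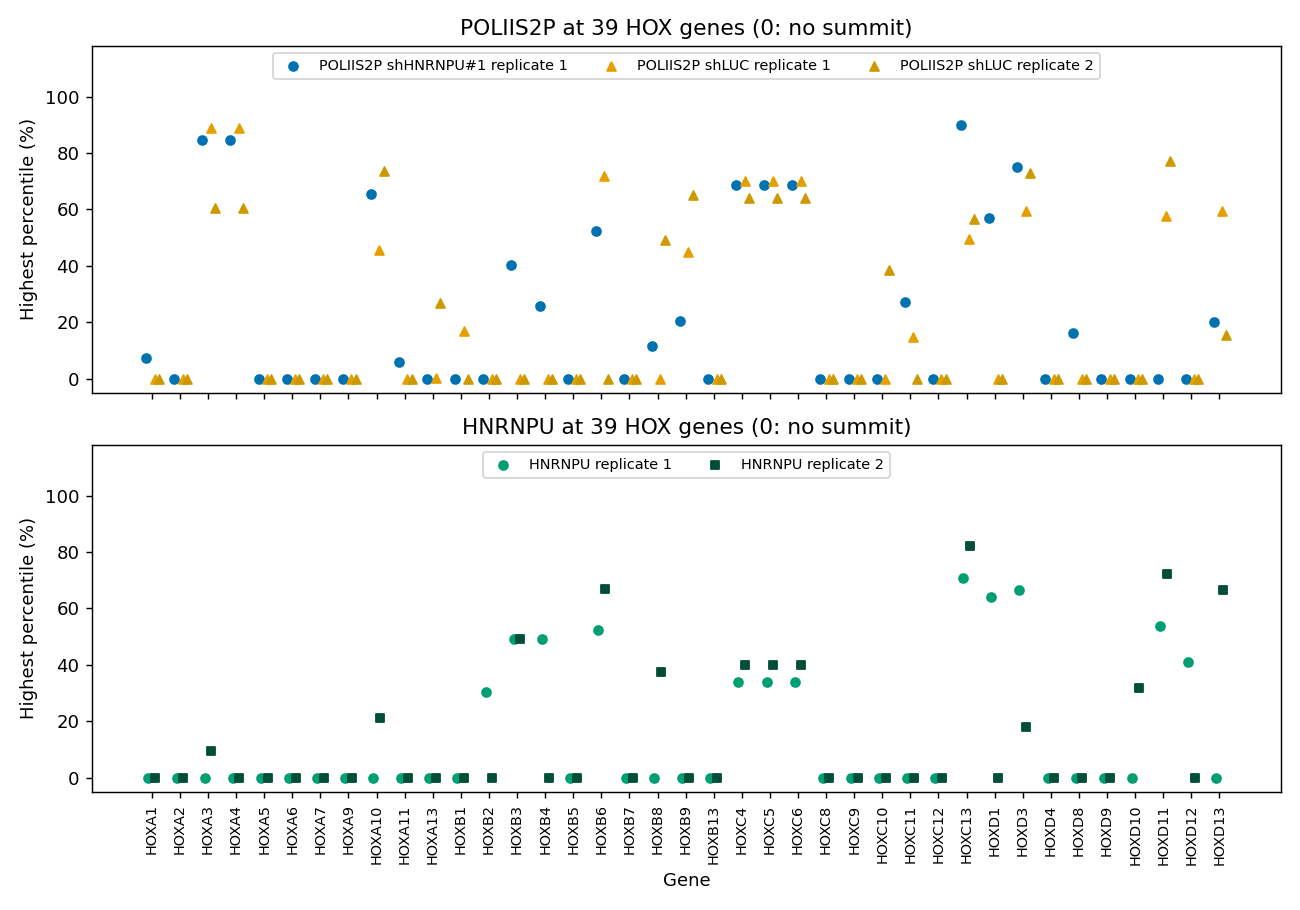
Highest percentile (y axis, %) of POLIIS2P (upper panel, shHNRNPU#1 in blue and the 2 shLUC libraries in orange) and HNRNPU (lower panel, 2 libraries) at each of the 39 HOX genes (x axis), with 0 for no summit. All 3 POLIIS2P libraries are above 0 at 10 genes and both HNRNPU libraries at 8.

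Other genes of the pathway are given by list, and no difference between lists was tested. Of the homeobox genes related to HOX, 10 of 12, among them GBX2 and MNX1, had H3K4me1 in all 4 and H3K27ac in none of 4 shHNRNPU libraries. Among all protein-coding genes 5.83% had this combination. By limma all 12 were called higher for H3K4me1, beside 33.4% of all genes tested (median difference 70 points, beside 57.5 for HOX and 10.9 for all genes tested). Genes with that combination were at 0 for H3K27ac and could differ in 1 direction only, so calls at them are no support for a difference. Of the 10 activators of HOX genes, the caudal factors CDX1, CDX2 and CDX4 had the combination, and the retinoic acid receptors and the MLL and KDM6 enzymes did not, with 7 called higher and 1 lower. The TALE cofactors, which bind DNA together with HOX proteins, had it at 0 of 9, and 6 of them, including PKNOX1, had H3K27ac in all 4. Of 22 Polycomb genes 4 had it, with 14 called higher and 1 lower. Over all genes tested 33.4% were called higher and 14.3% lower. With names exchanged no gene of these lists was called for either antibody between shHNRNPU and shLUC.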

How the data were processed

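CUT&Tag libraries of H3K4me1, H3K27ac, HNRNPU and POLIIS2P from H1 cells were used as deposited. The submitters' processing notes name cutadapt, Bowtie2, SAMtools, MACS2 and deepTools with hg38, without versions. The authors deposited summit lists with a −log10 value per summit, and 1 series-wide HNRNPU interval list with a score. Read depth and thresholds are not given in the sources used here. Within each list scores were turned into percentiles, and each protein-coding gene took its highest percentile within 1000 bp (0 if none). Genes with a summit in at least 2 libraries were compared with limma 3.58.1 in R 4.3.3, called at an adjusted p under 0.05 (Benjamini-Hochberg), after the code was tested on simulated data. Exact permutation tests were two-sided. Python 3.11.15 was used elsewhere. Groups followed the titles, and comparisons with the shLUC libraries were repeated with antibody names exchanged. Other settings tried are given under the dependence on processing.

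The labels' antibody list names neither H3K4me1 nor POLIIS2P. Repeats were not one library deposited again: 2.15% to 8.7% of summits fell on the same base. The members and lists were chosen with earlier results of these data known. Genes named are, per comparison, up to 10 called members with the largest difference, otherwise the 3 largest, per antibody the 5 highest and 5 lowest members, each member with an HNRNPU site, and up to 4 genes per other list. TDGF1 was not matched in the annotation. MicroRNA and promoter sequences are from RefSeq (GRCh38.p14). Some items are not reported here.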

Additional observations from a re-analysis of the deposited data

Results flagged for a closer look

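Of 90 sets of 4 libraries examined for a library far from the other 3, 3 had one, and chance gives about 5%. The 90 include the H3K27ac sets of all 39 HOX genes, which were at 0 throughout and could not have one. The 3 of 90 is therefore not comparable with that 5%. The number of HOX genes with an H3K4me1 summit was 34, 34 and 34 in 3 shHNRNPU libraries and 38 in shHNRNPU#2 replicate 2, a gap of 1 times the range, and this library also had the longest list. HOXC8 had H3K4me1 percentiles of 42.3, 50.7 and 50.4 in 3 libraries and 0 in shHNRNPU#2 replicate 1 (gap 0.834 of the range). HOXC9 had 8.38 in that same library and 0 in the other 3 (gap 1).

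With the titles of the shLUC libraries, the difference between shHNRNPU and shLUC was higher for H3K4me1 than for H3K27ac at 33 of the 39 HOX genes by the interaction term in limma, beside 37% of the 17817 genes tested. As titled, all 39 genes were at 0 for H3K4me1 in shLUC and for H3K27ac in shHNRNPU. The term could therefore not fall below 0 at them, and the 33 is no support for a difference. With names exchanged no HOX gene was called for H3K4me1, and H3K27ac was at 0 at all 39.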

How the results depend on the processing

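Of 164 repeats of the main counts and densities under other settings, 130 stayed within 1.5 times the main count or 1 SD of the main density. Counts of 0 that stayed at 0 are among the 130, including results in which no HOX gene could be called, so this tally is no measure of stability. The calls with the shLUC names exchanged, and with both antibodies averaged, were 0 of the HOX genes under every setting run, beside at most 0.22% of all genes in either direction. For H3K27ac with names exchanged, HOX genes were tested only without the filter, where all 39 were at 0, so no call was possible. With the 20000 strongest summits of each list, 1 HOX gene was called for H3K4me1 as titled (17% of all genes), 4 for H3K27ac as titled (12.8%) and 1 between antibodies (16.1%). HOX genes with a summit then averaged 3.5 (H3K4me1), 6 (HNRNPU) and 2.33 (POLIIS2P), beside 31%, 58.3% and 50% of all genes. Summits per 100 kb were 0.566, 1.13 and 0.18, with no genome density computed at that cut, and 1 gene was past 10 points for POLIIS2P. With ranks, 8, 5 and 8 HOX genes were called in the main direction for H3K4me1 as titled, H3K27ac as titled and between antibodies, beside 15.3%, 12.6% and 15.4% of all genes, and 4, 3 and 8 in the other, beside 42%, 39.8% and 45.3%. The exact permutation test called 0 in each of the 3. At a score of at least 5, summits per 100 kb were 14.8 (H3K4me1), 0.808 (HNRNPU) and 1.26 (POLIIS2P), HOX genes with a summit averaged 3.5 for HNRNPU and 10.3 for POLIIS2P, and 1 had an HNRNPU site. Flanks of 10 kb gave 23.3, 3.13 and 5.04 summits per 100 kb. Windows of 5000 bp gave 39 called for H3K4me1 as titled (32.2% of all genes) and 17 past 10 points for POLIIS2P, and windows of 0 bp gave 5 for the latter and left HOXB1 uncalled for H3K4me1 as titled. The series-wide HNRNPU list gave 16 genes, and H3K4me1 lists shortened to the shortest H3K27ac list gave 11.8 on average. With ranks the difference changed sign at 16, 14 and 20 HOX genes in those 3 comparisons, and the genes then called in the other direction were HOXA7, HOXB5, HOXC12 and HOXD4 for H3K4me1 as titled, HOXA5, HOXA7 and HOXB7 for H3K27ac as titled, and HOXA2, HOXA5, HOXA6, HOXA7, HOXB4, HOXB5, HOXC12 and HOXD4 between antibodies.

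Leaving out 1 library at a time gave 20 to 29 HOX genes for H3K4me1 as titled, beside 24% to 37.7% of all genes tested. For H3K27ac as titled it gave 0 to 28 (0 without either shLUC library, since none then passed the filter), beside 3.22% to 19.9%. Between antibodies it gave 26 to 30, beside 24.6% to 35.5%, and for POLIIS2P 14 to 14 were past 10 points. Summits per 100 kb ran from 18.1 to 19.5 for H3K4me1, 0.0718 to 0.144 for H3K27ac, 2.37 to 2.59 for HNRNPU and 3.45 to 4.36 for POLIIS2P, and HOX genes with a summit from 34 to 35.3, 0 to 0, 12 to 13 and 14.5 to 17. Same-numbered repeats did not deviate together (correlations of −0.0369 to 0.0303 between groups), so no pairing by number showed in these values. Whether same-numbered libraries were prepared together is unknown. With the replicate block 25, 29 and 29 HOX genes were called for H3K4me1 as titled, H3K27ac as titled and between antibodies, beside 31%, 15.9% and 33.4% of all genes, and 0 otherwise. Lists of summits carry no depth, so a gene without a summit may hold signal below the threshold of its list.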
